A study of Mus musculus with 16 samples.

Results

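The genes described are those of the cyclins, the cyclin-dependent kinases (CDKs) and the machinery that licenses and starts DNA replication. They were chosen by name alone, as every gene probe of the array whose gene name begins with a cyclin A, B, D or E, a numbered CDK, Mcm, Orc or E2f symbol, or with Gmnn, Cdt1, Cdc6 or Pcna. The rule found 90 of 41174 gene probes, which name 54 genes. Of these, 86 probes and 53 genes exceeded background clearly in 2 or more of 16 arrays and were tested among 23374 genes. Ccnb3, a cyclin known from meiosis, was well above background on no array and was not tested. Cyclins are the regulatory subunits that switch on CDKs. Cyclin D with Cdk4 or Cdk6, and then cyclin E with Cdk2, inactivate the retinoblastoma proteins and so free E2F factors, which turn on genes of DNA synthesis. In parallel the origin recognition complex (ORC), Cdc6 and Cdt1 load the ring-shaped MCM helicase on replication origins, and geminin (Gmnn) keeps origins from being loaded again. Mouse embryonic stem (ES) cells are known for a short first gap phase with high cyclin E.

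The arrays profiled mouse lines titled as ES cells, epiblast stem cells (EpiSC), EpiSC-like lines or iPS_EpiSC, in the NOD strain and in lines labelled non-NOD. The ES and EpiSC-like states named here follow these titles, not the markers. The NOD arrays were 2 of EpiSC-like iPS line 6 (passages 7 and 12), 4 of EpiSC-like ES line 1 (passages 7, 10, 5 and 9 as replicates 1 to 4) and 3 of NOD ES cells. The non-NOD arrays were 2 of lines titled iPS_EpiSC (called EpiSC iPS here), 2 of EpiSC (passages 12 and 20), 1 of 129 ES cells labelled epiESM and 2 of 129 ES cells labelled mESM (all 3 at passage 8). Each EpiSC-like group was thus 1 line at several passages, with a fitted mean of its own. The spread behind the p-values was taken within groups, so it does not hold the difference between the EpiSC-like lines. Passages of 1 line stand as replicates there. Per the labels' protocols, ES cultures were depleted of embryonic fibroblasts by preplating and colonies of EpiSC and EpiSC-like lines were taken off mechanically, so the method of isolation differed between the states. The meaning of mESM, epiESM and the title suffixes of the NOD ES and iPS_EpiSC lines is not given in the sources used here, nor are sex, age or culture media.

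Per array, 38 to 53 of the 53 tested members were well above background, while the share over all gene spots ran from 26.3% to 88.5%. A pair of arrays stood apart from their groups. The SD of the log2 probe differences of NOD ES replicate 1 was 0.697 to EpiSC iPS replicate 1, but 1.13 and 1.15 to its own group. For EpiSC iPS replicate 2 it was 0.397 and 0.387 to the other NOD ES arrays, but 0.963 to EpiSC iPS replicate 1. Each of these arrays thus lay nearer to arrays of the other one's group than to its own, and whether their labels were exchanged was not tested. They also had the lowest shares of spots well above background, 26.3% in NOD ES replicate 1 and 40.5% in EpiSC iPS replicate 2. Both were on slide 6, as was EpiSC iPS replicate 1. Whether low signal or slide bears on these distances was not tested. Counts of the members and of the larger gene groups are given with and without both. The SD was 0.2 between the 129 ES mESM arrays, whose source labels are identical, so their spread may be smaller than that between cultures. Of the state markers, Pou5f1, a core pluripotency factor, was at -4.42 and -3.40 in NOD EpiSC-like iPS, -1.52, -0.62, -1.47 and -1.12 in NOD EpiSC-like ES and 2.22, 4.41 and 3.75 in NOD ES, and at 2.26 and 4.69 in EpiSC iPS, 0.89 and 0.27 in EpiSC, 3.50 in 129 ES epiESM and 4.45 and 4.43 in 129 ES mESM. Levels here and below are log2 of the processed spot signal minus the array's 75th percentile. Zfp42, a marker of the naive ES state, fell in NOD EpiSC-like against NOD ES lines (-9.82 ± 0.74, adjusted p = 2.09e-06), and the primed epiblast marker Fgf5 rose (2.40 ± 0.28, adjusted p = 4.62e-05). Fgf5 was at -2.27 and -2.19 in NOD EpiSC-like iPS, 1.22, 0.87, 0.96 and 1.08 in NOD EpiSC-like ES and 2.95 and 2.92 in EpiSC, so the iPS line carried the EpiSC-like name with little of this marker. Gsc, another primed epiblast gene, was at -2.69 and -2.88 in NOD EpiSC-like iPS, 0.86, 0.51, 0.69 and 0.73 in NOD EpiSC-like ES and -0.45, -2.17 and -1.87 in NOD ES, so the iPS line lay below NOD ES, and Gsc was at 2.82 and 2.67 in EpiSC. Of 7 primed epiblast markers 6 rose and 0 fell in NOD EpiSC-like against NOD ES lines, and 7 of 7 rose in EpiSC against 129 ES mESM. Nanog, another pluripotency factor, was at -2.56 and -2.36 in NOD EpiSC-like iPS, -2.82, -2.26, -2.42 and -2.14 in NOD EpiSC-like ES and 0.60, 3.83 and 3.88 in NOD ES. Since these are bulk cultures, fewer cells of a type and less RNA per cell cannot be told apart in any result below.

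In the NOD EpiSC-like lines most replication and cell cycle genes were lower than in NOD ES cells, while the cyclin D gene Ccnd2 was higher. In that comparison 35 of the 53 members fell and 4 rose (limma, adjusted p under 0.05), which is 73.6% called against 38.6% of all genes tested. The share that fell was 66% of the members and 21.9% of all genes, and 7.55% of the members and 16.7% of all genes rose. The median log2 difference (EpiSC-like minus ES) was -1.48 over the members and -0.27 over all genes. In EpiSC against 129 ES mESM cells, 16 members fell and 5 rose, or 39.6% called against 24.5% of all genes. There 30.2% of the members and 12.6% of all genes fell, and the medians were -0.87 and -0.34. These comparisons share no array, but the spread was estimated over all 16 arrays together, so their calls are not independent. Of the 35 members that fell in the NOD lines, 15 also fell in EpiSC, 19 were not called there and 1, Cdk6, rose there.

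Without the arrays that stood apart, 42 members fell and 4 rose in the NOD comparison, so its direction held. In the non-NOD one 29 fell and 7 rose, but neither array belonged to EpiSC or 129 ES mESM. The non-NOD differences were therefore unchanged, here and below, and only the estimated spread, and so the calls, changed. No share of all genes is given beside counts without these arrays. A larger count there is therefore not read as a result about the members. The non-NOD count depended on single arrays, with 13 members called without EpiSC replicate 1 or without replicate 2, 11 without 129 ES mESM replicate 1 or without replicate 2, and 11 with the mESM arrays averaged to 1 sample. Mcm2, Mcm3, Cdc6, E2f1, E2f6 and Orc5l lost the call there when any 1 of these 4 arrays was left out, and Mcm5 lost it without EpiSC replicate 2, mESM replicate 1 or mESM replicate 2. The count was 6 with slide as a fixed block and 7 with normexp background correction, and no MCM helicase gene was called in EpiSC under either. Slide 4 was the one slide that held both NOD states. It held NOD EpiSC-like ES replicate 2 and NOD ES replicates 2 and 3, but no NOD EpiSC-like iPS array. Within it, for the ES line alone, the member median was -1.39 and that of all genes -0.02. No slide held both EpiSC and 129 ES mESM, or both EpiSC iPS and EpiSC. None held 129 ES mESM together with NOD ES, EpiSC iPS or 129 ES epiESM, so all these comparisons ran between slides only. In the NOD comparison 29 members had every EpiSC-like array below every NOD ES array and 2 had them above, of 52 with all values, against 16.4% and 12.3% of all genes. In EpiSC 37 of 52 lay wholly below and 12 wholly above 129 ES mESM, where 2 arrays face 2 and the shares over all genes were 52.8% and 31.5%.

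**Figure D1:**
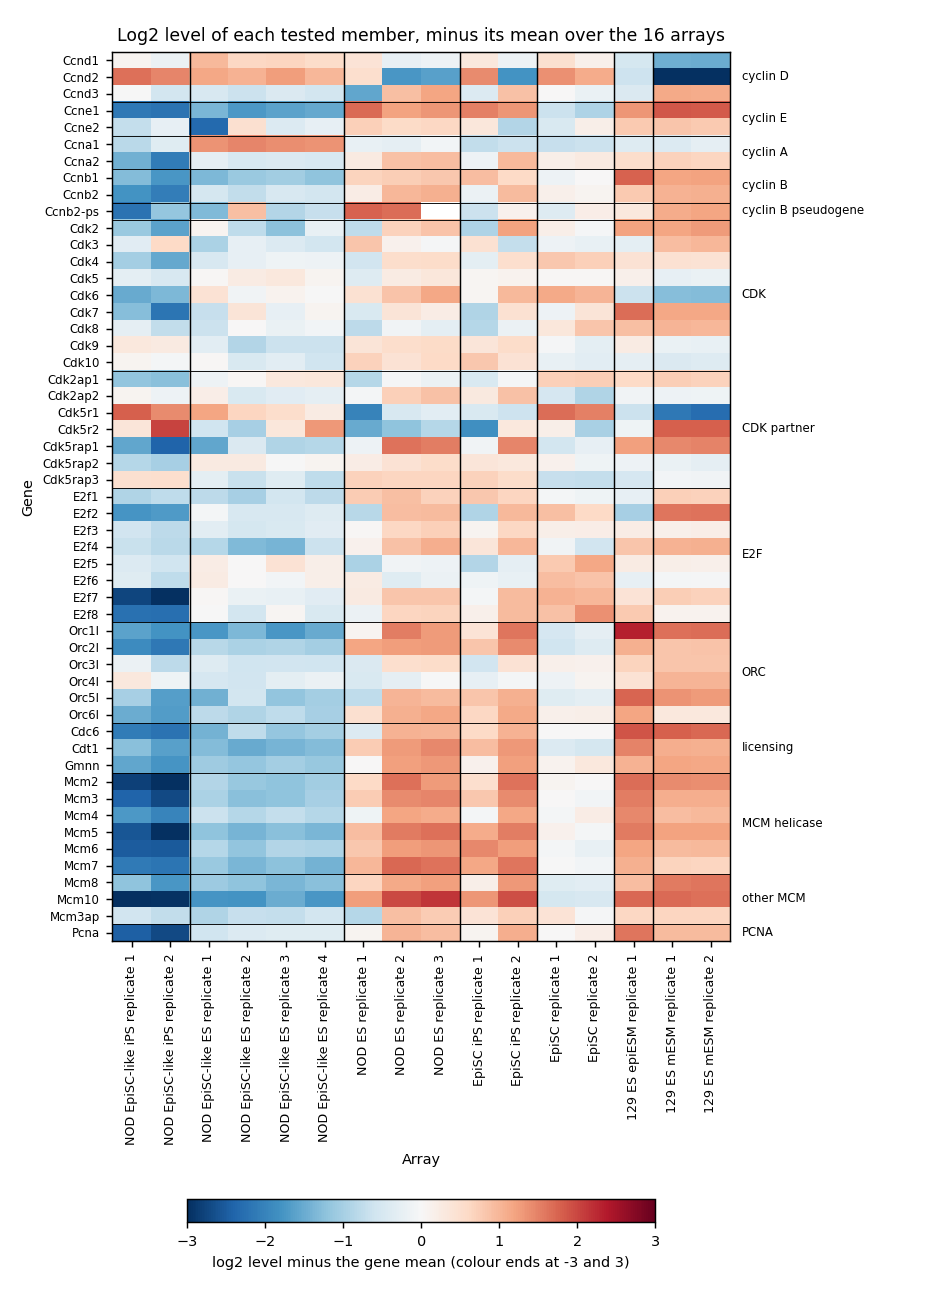
Log2 level of each of the 53 tested members (rows, grouped by role) in each of the 16 arrays (columns, grouped by line), minus the gene's mean over the arrays, where blue is below and red above the mean and a white cell in Ccnb2-ps is a missing value. The MCM helicase and licensing rows are blue in the 6 NOD EpiSC-like arrays, palest in EpiSC and red in most ES arrays, and Ccnd2 runs the other way.

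Fibroblast feeder markers moved with the same comparisons. Of 15 fibroblast genes, 9 rose and 0 fell in NOD EpiSC-like against NOD ES lines, and 13 rose and 0 fell in EpiSC against 129 ES mESM. Their summed relative signal was 305 to 337 in NOD EpiSC-like iPS, 463 to 648 in NOD EpiSC-like ES and 53.5 to 195 in NOD ES. It was 53.5 and 606 in EpiSC iPS, 276 and 307 in EpiSC, 251 in 129 ES epiESM and 12.7 and 12.9 in 129 ES mESM. Without both arrays that stood apart, 15 of 15 rose in the NOD and 14 of 15 in the non-NOD comparison, whose differences were unchanged. At least 10 of the 15 markers were well above background on every array, so none of the groups lacked them. Their part in the results below was not tested. The median level of the 6 MCM helicase genes was 5.82 in 129 ES epiESM, with a fibroblast sum of 251. It was 5.37 and 5.38 in 129 ES mESM, with sums of 12.9 and 12.7. In EpiSC iPS it was 5.03 in replicate 1 (sum 606) and 5.65 in replicate 2 (sum 53.5). In NOD ES it was 4.91 in replicate 1 (sum 195) and 5.66 and 5.65 in replicates 2 and 3 (sums 55.8 and 53.5). Whether these levels and sums are linked was not tested.

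The MCM helicase genes fell together in the NOD lines. Mcm2 to Mcm7 encode the ring of subunits that unwinds DNA ahead of the replication fork. All 6 of 6 fell in NOD EpiSC-like against NOD ES lines, with a median log2 difference of -3.11, and 4 of 6 fell in EpiSC against 129 ES mESM, with a median of -1.12. All 6 fell in each without both arrays that stood apart, with medians of -3.33 and -1.12. The latter could not change, as neither array was in the non-NOD comparison. Mcm5 was at 1.07 and 0.65 in NOD EpiSC-like iPS, 2.43, 2.24, 2.40 and 2.26 in NOD EpiSC-like ES and 4.56, 5.21 and 5.30 in NOD ES. The 2 iPS arrays were the lowest, all 6 EpiSC-like arrays lay below the ES arrays, and the difference was -3.43 ± 0.20, adjusted p = 4.46e-07 (SE). In the non-NOD lines Mcm5 was at 4.75 and 5.17 in EpiSC iPS, 3.76 and 3.58 in EpiSC, 5.19 in 129 ES epiESM and 4.86 and 4.85 in 129 ES mESM. EpiSC lay below all other non-NOD arrays (-1.19 ± 0.28, adjusted p = 0.01 against 129 ES mESM). The difference in the NOD lines minus that in the non-NOD lines was -2.24 ± 0.35, adjusted p = 0.00242.

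Mcm2 was at 0.42 and 0.03 in NOD EpiSC-like iPS, 2.33, 2.08, 2.01 and 2.18 in NOD EpiSC-like ES and 3.80, 4.86 and 4.50 in NOD ES, with no overlap between EpiSC-like and ES arrays (-3.20 ± 0.28, adjusted p = 6.13e-06). The non-NOD levels of Mcm2 were 3.72 and 4.84 in EpiSC iPS, 3.30 and 3.23 in EpiSC, 4.88 in 129 ES epiESM and 4.64 and 4.60 in 129 ES mESM. EpiSC was again the lowest of these groups (-1.35 ± 0.39, adjusted p = 0.0259 against mESM). For Mcm3 the levels were 2.09 and 1.78 in NOD EpiSC-like iPS, 3.54, 3.24, 3.28 and 3.49 in NOD EpiSC-like ES and 5.26, 5.91 and 5.96 in NOD ES. They did not overlap either (-3.05 ± 0.21, adjusted p = 1.18e-06). The non-NOD levels of Mcm3 were 5.31 and 5.90 in EpiSC iPS, 4.51 and 4.42 in EpiSC, 6.02 in 129 ES epiESM and 5.59 and 5.59 in 129 ES mESM, and the difference of EpiSC from mESM was -1.12 ± 0.29, adjusted p = 0.0147. Mcm7 was at 2.79 and 2.72 in NOD EpiSC-like iPS, 3.80, 3.55, 3.69 and 3.50 in NOD EpiSC-like ES and 5.92, 6.63 and 6.55 in NOD ES, a difference of -3.17 ± 0.19, adjusted p = 5.37e-07. In non-NOD lines it was at 6.08 and 6.52 in EpiSC iPS, 4.89 and 4.83 in EpiSC, 5.98 in 129 ES epiESM and 5.59 and 5.56 in 129 ES mESM, where EpiSC did not pass the test (-0.71 ± 0.27, adjusted p = 0.0735). The test of the difference between the NOD and non-NOD contrasts passed for Mcm7 (-2.46 ± 0.33, adjusted p = 0.00115). Mcm6 (-2.86 ± 0.16, adjusted p = 3.52e-07) and Mcm4 (-2.03 ± 0.33, adjusted p = 0.000438) fell in the NOD lines too. In EpiSC Mcm6 fell (-1.12 ± 0.23, adjusted p = 0.00439) and Mcm4 was not called (-0.88 ± 0.45, adjusted p = 0.185). A dim second Mcm4 probe, well above background on 3 arrays, differed by -1.75 in the NOD and 0.62 in the non-NOD comparison. The interaction passed for 5 of the 6 genes, all but Mcm4. With slide as a fixed block no member passed the interaction (0 of 53, 17 of 53 without the block). In the NOD comparison each of the 6 genes stayed below 0 under quantile scaling, normexp background correction and the deposited value table. Within slide 4, where only the ES line could be compared, they lay between -2.0 and -3.04.

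**Figure D2:**
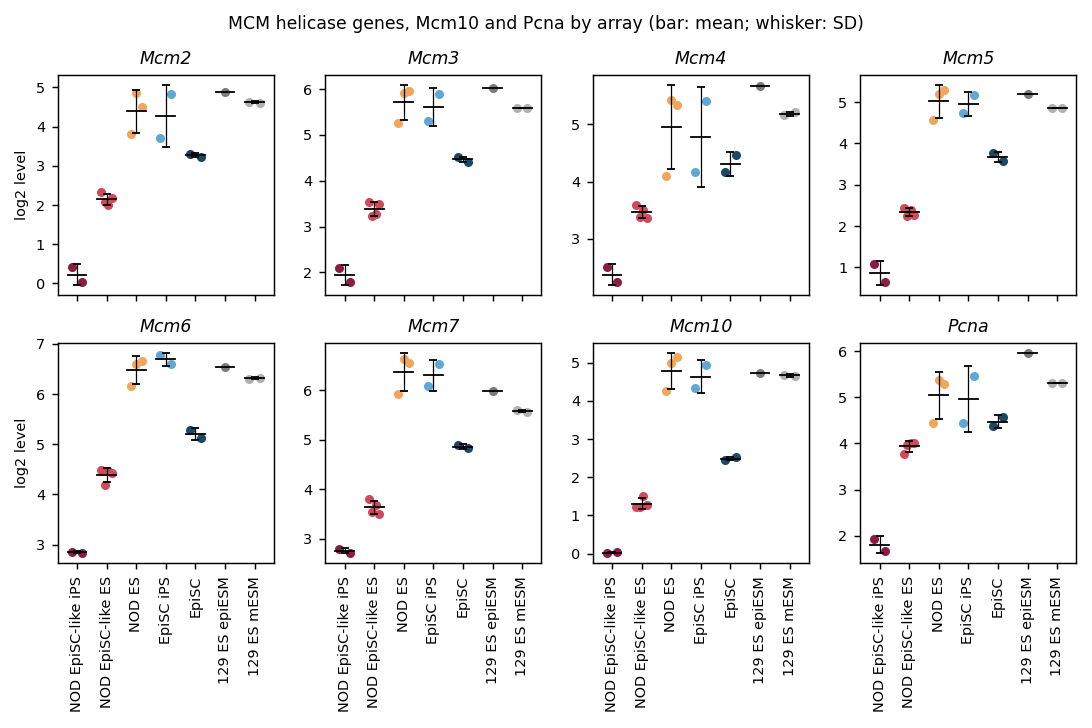
Log2 level (y axis) of the 6 MCM helicase genes, Mcm10 and Pcna by group (x axis), with a point for each array, a bar for the mean and a whisker for the SD. NOD EpiSC-like iPS lies lowest in every panel, and for Mcm5 its arrays at 0.65 and 1.07 lie under the NOD EpiSC-like ES arrays at 2.24 to 2.43 and the NOD ES arrays at 4.56 to 5.30.

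The promoters of these genes are shown with the letters of the E2F site, the element by which E2F factors are known to reach replication genes. All 54 members matched a RefSeq gene, and 42 had a promoter in the RefSeq table of build GRCm38.p6, from 250 bases before to 50 bases after a start. The motif was searched on both strands as TTTCCCGC, TTTGGCGC, TTTCGCGC and TTTGCCGC. It occurred in 13 of the 42 member genes, or 31%, and in 2.6% of 27025 genes with such a promoter. Among the MCM helicase genes it was found in 4 of 5 (Mcm3, Mcm5, Mcm6 and Mcm7, in the last at 1 of 2 starts), in 2 of 2 licensing genes (Cdc6, Cdt1) and in 3 of 6 E2f genes (E2f2, E2f3, E2f7). It was found in 0 of 1 cyclin E genes and 0 of 3 cyclin B genes with a promoter in the table. A match describes letters and not a site that is bound. Mcm2, the MCM helicase gene without a match, is shown for contrast, and capitals mark the motif, with overlapping matches on both strands in 1 run in Mcm5 and Mcm6.
Mcm3 (chr1:20820263-20820562, minus strand): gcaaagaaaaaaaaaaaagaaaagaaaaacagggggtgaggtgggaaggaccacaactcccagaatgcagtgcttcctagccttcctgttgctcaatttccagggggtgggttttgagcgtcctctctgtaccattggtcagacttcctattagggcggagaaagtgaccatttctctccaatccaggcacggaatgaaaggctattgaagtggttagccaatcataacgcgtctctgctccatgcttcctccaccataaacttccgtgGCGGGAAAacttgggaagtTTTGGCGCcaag
Mcm5 (chr8:75109259-75109558, plus strand): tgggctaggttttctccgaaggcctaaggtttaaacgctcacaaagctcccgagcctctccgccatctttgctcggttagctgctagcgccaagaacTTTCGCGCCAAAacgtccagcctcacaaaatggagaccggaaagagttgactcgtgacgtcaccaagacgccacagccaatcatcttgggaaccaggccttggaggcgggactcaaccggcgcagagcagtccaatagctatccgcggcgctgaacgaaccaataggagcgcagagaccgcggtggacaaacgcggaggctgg
Mcm6 (chr1:128359656-128359955, minus strand): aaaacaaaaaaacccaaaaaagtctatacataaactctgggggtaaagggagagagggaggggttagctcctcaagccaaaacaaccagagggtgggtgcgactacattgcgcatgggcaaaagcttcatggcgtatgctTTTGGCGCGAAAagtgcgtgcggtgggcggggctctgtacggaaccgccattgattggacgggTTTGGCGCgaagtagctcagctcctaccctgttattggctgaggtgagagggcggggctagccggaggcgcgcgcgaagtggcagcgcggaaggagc
Mcm7 (chr5:138171834-138172133, minus strand): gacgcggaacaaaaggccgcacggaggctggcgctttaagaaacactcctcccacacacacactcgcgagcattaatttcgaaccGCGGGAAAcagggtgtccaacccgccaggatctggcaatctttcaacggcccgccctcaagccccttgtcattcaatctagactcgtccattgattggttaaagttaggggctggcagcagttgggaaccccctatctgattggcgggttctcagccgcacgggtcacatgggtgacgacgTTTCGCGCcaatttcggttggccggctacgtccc
Mcm2 (chr6:88898731-88899030, minus strand): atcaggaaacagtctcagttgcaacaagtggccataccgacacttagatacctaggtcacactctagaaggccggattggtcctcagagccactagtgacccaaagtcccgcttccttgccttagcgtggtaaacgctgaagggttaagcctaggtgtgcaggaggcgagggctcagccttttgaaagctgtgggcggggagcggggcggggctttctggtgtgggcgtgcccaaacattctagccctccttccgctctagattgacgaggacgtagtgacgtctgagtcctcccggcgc
Cdc6 (chr11:98907901-98908200, plus strand): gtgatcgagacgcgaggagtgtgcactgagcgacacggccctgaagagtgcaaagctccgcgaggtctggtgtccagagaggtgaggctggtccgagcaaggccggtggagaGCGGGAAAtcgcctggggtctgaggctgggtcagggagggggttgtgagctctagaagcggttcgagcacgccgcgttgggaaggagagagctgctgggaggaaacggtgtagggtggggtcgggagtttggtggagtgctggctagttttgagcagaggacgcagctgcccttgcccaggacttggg
Cdt1 (chr8:122567765-122568064, plus strand): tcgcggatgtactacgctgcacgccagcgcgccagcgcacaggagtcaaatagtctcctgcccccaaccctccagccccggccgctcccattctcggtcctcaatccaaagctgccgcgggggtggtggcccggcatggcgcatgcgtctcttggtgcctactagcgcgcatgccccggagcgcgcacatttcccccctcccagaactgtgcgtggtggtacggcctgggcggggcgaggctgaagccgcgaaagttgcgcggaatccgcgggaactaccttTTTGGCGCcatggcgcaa
Counted from the start as position 1, the matches began at -138 in Cdc6, at -165 and 17 in Mcm7, at 20 and 39 in Mcm3 and at 33 in Cdt1. In the NOD comparison Mcm2 without the letters differed by -3.20. With the letters Mcm3 differed by -3.05, Mcm5 by -3.43, Mcm6 by -2.86 and Mcm7 by -3.17. Whether the letters bear on these differences was not tested.

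Other genes with an Mcm name moved with the helicase. Mcm10, which is known to bridge the helicase and DNA polymerase alpha, had the largest difference of all members in the NOD comparison (-4.13 ± 0.22, adjusted p = 2.45e-07). Its levels were 0.01 and 0.04 in NOD EpiSC-like iPS, 1.23, 1.21, 1.52 and 1.26 in NOD EpiSC-like ES and 4.25, 4.99 and 5.14 in NOD ES. In the non-NOD lines they were 4.33 and 4.94 in EpiSC iPS, 2.46 and 2.52 in EpiSC, 4.73 in 129 ES epiESM and 4.69 and 4.65 in 129 ES mESM. EpiSC was the lowest non-NOD group there (-2.18 ± 0.30, adjusted p = 0.000448 against mESM). Mcm8, a helicase known from recombination repair, was at -0.57 and -1.11 in NOD EpiSC-like iPS, -0.45, -0.55, -0.72 and -0.62 in NOD EpiSC-like ES and 1.28, 1.78 and 1.88 in NOD ES. It fell in NOD EpiSC-like lines (-2.36 ± 0.25, adjusted p = 2.41e-05) and in EpiSC (-1.94 ± 0.35, adjusted p = 0.0022), with non-NOD levels of 0.81 and 1.94 in EpiSC iPS, 0.29 and 0.32 in EpiSC, 1.58 in 129 ES epiESM and 2.21 and 2.26 in 129 ES mESM. Mcm3ap, a nuclear export factor that binds Mcm3, fell in the NOD lines (-0.96 ± 0.34, adjusted p = 0.0415) with overlapping arrays. Pcna, the sliding clamp of the replication polymerases, was at 1.93 and 1.67 in NOD EpiSC-like iPS, 3.77, 3.96, 4.00 and 4.01 in NOD EpiSC-like ES and 4.45, 5.38 and 5.29 in NOD ES. The NOD difference was -2.17 ± 0.26, adjusted p = 5.41e-05, and all EpiSC-like arrays lay below all ES arrays. The non-NOD Pcna levels were 4.45 and 5.47 in EpiSC iPS, 4.37 and 4.57 in EpiSC, 5.97 in 129 ES epiESM and 5.31 and 5.31 in 129 ES mESM, and the EpiSC difference was not called (-0.84 ± 0.36, adjusted p = 0.118).

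The genes that load the helicase were lower in EpiSC-like lines and, in part, in EpiSC. Of 6 Orc genes, the subunits of the complex that marks origins, 4 fell in the NOD and 4 in the non-NOD comparison, and 5 in each without both arrays that stood apart. Orc1l (now named Orc1) was at -2.01 and -2.20 in NOD EpiSC-like iPS, -2.14, -1.76, -2.15 and -1.92 in NOD EpiSC-like ES and -0.32, 1.14 and 0.87 in NOD ES. Its NOD difference was -2.61 ± 0.34, adjusted p = 8.89e-05 and its EpiSC difference -2.04 ± 0.47, adjusted p = 0.0084, with non-NOD levels of 0.01 and 1.21 in EpiSC iPS, -0.90 and -0.67 in EpiSC, 1.92 in 129 ES epiESM and 1.24 and 1.27 in 129 ES mESM. Orc2l (Orc2) was at -0.46 and -0.70 in NOD EpiSC-like iPS, 0.60, 0.49, 0.53 and 0.41 in NOD EpiSC-like ES and 2.62, 2.69 and 2.72 in NOD ES, without overlap (-2.71 ± 0.17, adjusted p = 5.84e-07). The non-NOD Orc2l levels were 2.26 and 2.86 in EpiSC iPS, 0.83 and 1.05 in EpiSC, 2.51 in 129 ES epiESM and 2.26 and 2.29 in 129 ES mESM, and EpiSC fell against mESM (-1.33 ± 0.23, adjusted p = 0.00168). Orc5l (Orc5) was at -2.57 and -3.24 in NOD EpiSC-like iPS, -3.02, -2.12, -2.75 and -2.60 in NOD EpiSC-like ES and -2.34, -0.56 and -0.64 in NOD ES, where NOD ES replicate 1 lay among the EpiSC-like arrays (-1.58 ± 0.38, adjusted p = 0.00561). Non-NOD levels were -0.74 and -0.50 in EpiSC iPS, -1.94 and -1.87 in EpiSC, 0.17 in 129 ES epiESM and -0.23 and -0.29 in 129 ES mESM, and EpiSC fell against mESM (-1.64 ± 0.52, adjusted p = 0.0402). Orc6l (Orc6) fell in the NOD lines (-2.12 ± 0.19, adjusted p = 7.05e-06) and was not called in EpiSC (-0.15 ± 0.26, adjusted p = 0.699), and the contrasts differed (-1.97 ± 0.32, adjusted p = 0.00331). Orc4l (Orc4) was not called in the NOD lines (0.10 ± 0.18, adjusted p = 0.702) and fell in EpiSC (-1.05 ± 0.24, adjusted p = 0.00952), but its 3 other probes differed by -0.73 to -0.54 in the NOD comparison, the opposite sign. Orc3l (Orc3) passed in neither.

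All 3 licensing genes fell in the NOD lines and 2 of 3 in EpiSC. Cdt1, which brings the helicase to origins, was at 3.09 and 2.73 in NOD EpiSC-like iPS, 3.06, 2.85, 2.95 and 3.05 in NOD EpiSC-like ES and 5.11, 5.64 and 5.79 in NOD ES. The EpiSC-like arrays lay close together and below the ES arrays (-2.57 ± 0.19, adjusted p = 1.81e-06). Its non-NOD levels were 5.29 and 5.66 in EpiSC iPS, 3.94 and 3.82 in EpiSC, 5.85 in 129 ES epiESM and 5.44 and 5.41 in 129 ES mESM, and EpiSC fell against mESM (-1.54 ± 0.26, adjusted p = 0.00145). Cdc6, the loading ATPase that works with ORC, was at -2.57 and -2.68 in NOD EpiSC-like iPS, -1.89, -1.23, -1.63 and -1.48 in NOD EpiSC-like ES and -0.88, 0.57 and 0.56 in NOD ES. It fell in the NOD lines (-2.18 ± 0.31, adjusted p = 0.000182) and in EpiSC (-1.75 ± 0.43, adjusted p = 0.012), with non-NOD levels of 0.14 and 0.59 in EpiSC iPS, -0.46 and -0.46 in EpiSC, 1.42 in 129 ES epiESM and 1.32 and 1.27 in 129 ES mESM. A second, dimmer Cdc6 probe, well above background on 12 arrays, differed by -2.56 in the NOD but only by -0.38 in the non-NOD comparison. Gmnn, the inhibitor of Cdt1, fell along with it in the NOD lines (-2.23 ± 0.31, adjusted p = 0.000154), at 3.10 and 2.90 in NOD EpiSC-like iPS, 3.60, 3.50, 3.65 and 3.54 in NOD EpiSC-like ES and 4.67, 5.91 and 5.96 in NOD ES. In non-NOD lines it was at 4.80 and 5.89 in EpiSC iPS, 4.77 and 4.99 in EpiSC, 5.72 in 129 ES epiESM and 5.86 and 5.84 in 129 ES mESM, and the EpiSC difference was not called (-0.97 ± 0.43, adjusted p = 0.124).

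Among the cyclins, the cyclin E gene Ccne1 was lower and the cyclin D gene Ccnd2 higher in NOD EpiSC-like against NOD ES lines and in EpiSC against 129 ES mESM. Ccne1, the activator of Cdk2 at the start of DNA synthesis, was at 1.94 and 1.86 in NOD EpiSC-like iPS, 2.70, 2.35, 2.48 and 2.55 in NOD EpiSC-like ES and 5.77, 5.29 and 5.41 in NOD ES. Every EpiSC-like array was below every ES array (-3.28 ± 0.16, adjusted p = 2.09e-07). In the non-NOD lines it was at 5.59 and 5.39 in EpiSC iPS, 3.44 and 3.16 in EpiSC, 5.40 in 129 ES epiESM and 5.94 and 5.92 in 129 ES mESM, with EpiSC alone low (-2.63 ± 0.23, adjusted p = 1.86e-05 against mESM). The test of a difference between these contrasts did not pass (-0.65 ± 0.28, adjusted p = 0.166). Ccne2, its paralogue, was near background with wide spread at -3.78 and -3.32 in NOD EpiSC-like iPS, -5.41, -2.60, -3.49 and -3.32 in NOD EpiSC-like ES and -2.35, -2.51 and -2.44 in NOD ES (-1.19 ± 0.52, adjusted p = 0.0924). The non-NOD levels were -2.74 and -3.96 in EpiSC iPS, -3.54 and -2.90 in EpiSC, -2.28 in 129 ES epiESM and -2.23 and -2.29 in 129 ES mESM, and the EpiSC difference was not called either (-0.95 ± 0.71, adjusted p = 0.352).

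Ccnd2, a partner of Cdk4 and Cdk6, was at 4.88 and 4.70 in NOD EpiSC-like iPS, 4.40, 4.28, 4.48 and 4.24 in NOD EpiSC-like ES and 3.74, 1.49 and 1.61 in NOD ES. All EpiSC-like arrays lay above all ES arrays, and it rose (2.29 ± 0.64, adjusted p = 0.0142), though NOD ES replicate 1, which stood apart from its group, lay closer to them than the other ES arrays. Without both arrays that stood apart the difference was 3.02, and with normexp background correction it was 0.98 and no longer called. The call was also lost without NOD ES replicate 2 (1.90), without NOD ES replicate 3 (1.96) and with slide as a fixed block (2.93). In non-NOD lines Ccnd2 was at 4.65 and 1.43 in EpiSC iPS, 4.60 and 4.35 in EpiSC, 2.62 in 129 ES epiESM and 0.16 and 0.12 in 129 ES mESM, and EpiSC rose against mESM (4.33 ± 0.89, adjusted p = 0.00468). The 3 Ccnd2 probes gave the same sign, at 2.29 to 2.62 in the NOD and 4.13 to 4.40 in the non-NOD comparison. Fibroblast markers were also higher in the groups with high Ccnd2, and their part was not tested. Ccnd1, another cyclin D, was at 3.46 and 3.19 in NOD EpiSC-like iPS, 4.35, 3.99, 4.02 and 3.91 in NOD EpiSC-like ES and 3.77, 3.12 and 3.21 in NOD ES, a difference that was not called (0.33 ± 0.20, adjusted p = 0.228). It was at 3.68 and 3.21 in EpiSC iPS, 3.84 and 3.52 in EpiSC, 2.83 in 129 ES epiESM and 1.90 and 1.88 in 129 ES mESM and rose in EpiSC (1.79 ± 0.28, adjusted p = 0.000968). The NOD and non-NOD contrasts of Ccnd1 differed (-1.45 ± 0.35, adjusted p = 0.0197). Ccnd3, the remaining cyclin D, was at 2.84 and 2.30 in NOD EpiSC-like iPS, 2.38, 2.21, 2.42 and 2.30 in NOD EpiSC-like ES and 1.30, 3.75 and 4.04 in NOD ES (-0.58 ± 0.52, adjusted p = 0.421). NOD ES replicate 1 was the lowest and the other NOD ES arrays the highest of these. The non-NOD levels of Ccnd3 were 2.44 and 3.73 in EpiSC iPS, 2.87 and 2.65 in EpiSC, 2.41 in 129 ES epiESM and 3.98 and 3.97 in 129 ES mESM, and EpiSC was not called (-1.21 ± 0.73, adjusted p = 0.249).

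The mitotic cyclins fell in the NOD lines. Ccna2, which drives S phase and entry into mitosis, was at 1.73 and 1.07 in NOD EpiSC-like iPS, 2.90, 2.68, 2.73 and 2.68 in NOD EpiSC-like ES and 3.44, 4.04 and 4.10 in NOD ES (-1.79 ± 0.26, adjusted p = 0.000224). In non-NOD lines it was at 3.02 and 4.13 in EpiSC iPS, 3.33 and 3.43 in EpiSC, 3.69 in 129 ES epiESM and 3.85 and 3.82 in 129 ES mESM and EpiSC was not called (-0.45 ± 0.36, adjusted p = 0.387). Ccnb1, the main mitotic partner of Cdk1, was at 0.66 and 0.21 in NOD EpiSC-like iPS, 0.61, 0.84, 0.91 and 0.76 in NOD EpiSC-like ES and 2.63, 2.70 and 2.78 in NOD ES, without overlap between EpiSC-like and ES arrays (-2.09 ± 0.16, adjusted p = 2.32e-06). It was at 2.88 and 2.57 in EpiSC iPS, 1.82 and 1.97 in EpiSC, 3.73 in 129 ES epiESM and 3.15 and 3.16 in 129 ES mESM and fell in EpiSC (-1.26 ± 0.22, adjusted p = 0.00181). Ccnb2 was at 2.67 and 2.40 in NOD EpiSC-like iPS, 3.93, 3.74, 3.99 and 3.91 in NOD EpiSC-like ES and 4.68, 5.47 and 5.54 in NOD ES and fell (-2.02 ± 0.26, adjusted p = 9.6e-05). At 4.30 and 5.42 in EpiSC iPS, 4.61 and 4.54 in EpiSC, 5.26 in 129 ES epiESM and 5.50 and 5.53 in 129 ES mESM it did not pass in EpiSC (-0.94 ± 0.36, adjusted p = 0.0839). Its pseudogene Ccnb2-ps, which can share signal with it, fell in the NOD lines on dim spots (-2.82 ± 0.53, adjusted p = 0.00168) and had the opposite sign with normexp background correction (0.84). Ccna1, a cyclin known from male germ cells, was high in 1 line only: it was at -3.11 and -2.66 in NOD EpiSC-like iPS, -0.95, -0.83, -0.91 and -0.95 in NOD EpiSC-like ES and -2.51, -2.56 and -2.38 in NOD ES. The NOD difference was 0.59 ± 0.15, adjusted p = 0.00817. Its non-NOD levels were -3.02 and -2.93 in EpiSC iPS, -2.99 and -2.94 in EpiSC, -2.68 in 129 ES epiESM and -2.71 and -2.56 in 129 ES mESM, all on a par with the low NOD groups.

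**Figure D3:**
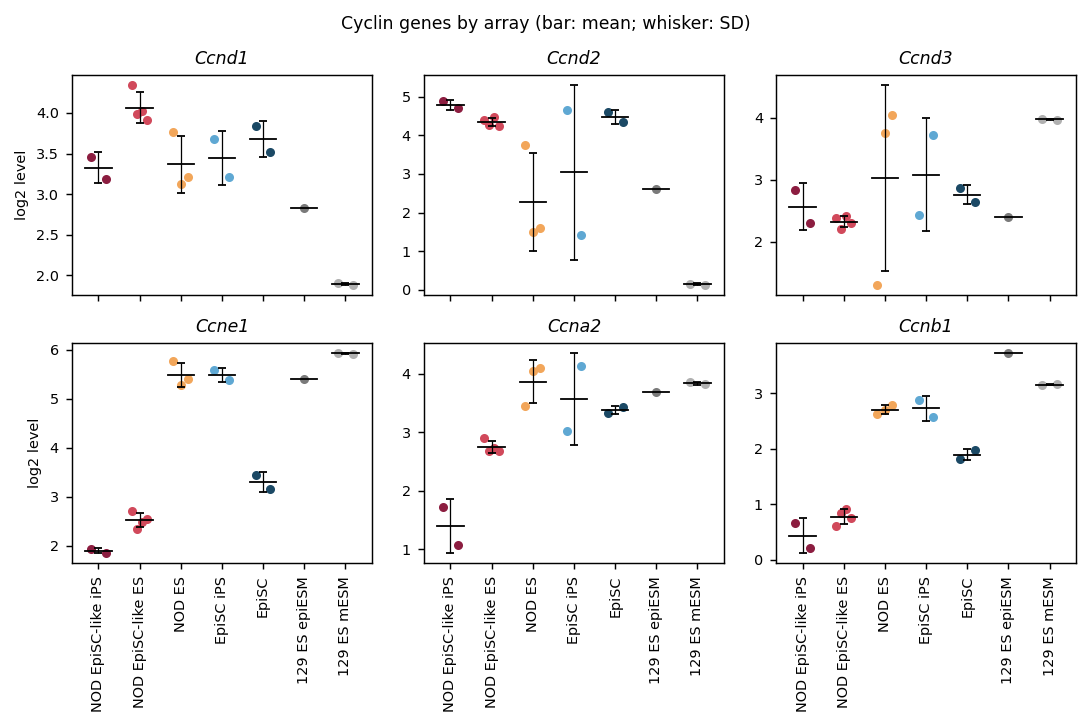
Log2 level (y axis) of 6 cyclin genes by group (x axis), with a point for each array, a bar for the mean and a whisker for the SD. Ccne1 is at 1.86 to 2.70 in the NOD EpiSC-like arrays, under the 5.29 to 5.77 of NOD ES, and in Ccnd2 and Ccnd3 the NOD ES points lie far apart, with replicate 1 at 3.74 and 1.30.

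Of the kinases themselves, 4 of 9 CDK genes fell and 0 rose in the NOD lines (44.4% called, against 38.6% of all genes), and 1 rose and 0 fell in EpiSC (11.1%, against 24.5%). In the NOD lines 7 of 9 fell without both arrays that stood apart, and in EpiSC 1 rose and 2 fell. Cdk4, a cyclin D partner, fell in the NOD lines (-0.94 ± 0.28, adjusted p = 0.0199), as did Cdk9, the elongation kinase (-0.66 ± 0.16, adjusted p = 0.00686), and Cdk10 (-0.74 ± 0.18, adjusted p = 0.00574). Cdk2, the cyclin E partner, did not pass in either comparison (-1.21 ± 0.50, adjusted p = 0.0791 and -1.15 ± 0.69, adjusted p = 0.252). The same held for Cdk3, Cdk5, Cdk7 and Cdk8.

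Cdk6 had opposite calls in the 2 strain groups on its brightest probe. That probe was at 0.58 and 0.73 in NOD EpiSC-like iPS, 2.53, 1.98, 2.19 and 2.07 in NOD EpiSC-like ES and 2.54, 2.94 and 3.24 in NOD ES, and fell (-1.48 ± 0.23, adjusted p = 0.000378). In non-NOD lines it was at 2.15 and 3.05 in EpiSC iPS, 3.23 and 3.11 in EpiSC, 1.43 in 129 ES epiESM and 0.81 and 0.79 in 129 ES mESM, and EpiSC rose against mESM (2.37 ± 0.32, adjusted p = 0.000395). The contrasts differed by -3.85 ± 0.40, adjusted p = 0.000357. The other 2 Cdk6 probes did not show this: they differed by 0.10 and -0.80 in the NOD and by -0.62 and -1.61 in the non-NOD comparison. In build mm7 of the array files the brightest probe lies at chr5:3535293-3535352 on the plus strand and another at chr5:3527675-3527734, and the brightest one is annotated to a transcript record of its own. The Cdk6 values named below are those of the brightest probe.

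Of 7 genes named after a CDK that are no kinase, 2 rose and 3 fell in the NOD lines. These are 28.6% and 42.9%, against 16.7% and 21.9% of all genes. Without both arrays that stood apart 1 rose and 5 fell. Cdk5r1, the p35 activator of the neuronal kinase Cdk5, was at 1.55 and 1.18 in NOD EpiSC-like iPS, 0.94, 0.40, 0.29 and 0.01 in NOD EpiSC-like ES and -2.23, -0.72 and -0.56 in NOD ES and rose (2.06 ± 0.35, adjusted p = 0.0006). In non-NOD lines it was at -0.70 and -0.86 in EpiSC iPS, 1.44 and 1.28 in EpiSC, -0.88 in 129 ES epiESM and -2.38 and -2.51 in 129 ES mESM, and EpiSC rose against mESM (3.80 ± 0.48, adjusted p = 0.000246). Its 2 EpiSC arrays were the highest non-NOD values. Cdk5r2, the related p39 activator, was at 4.66 and 6.33 in NOD EpiSC-like iPS, 3.70, 3.30, 4.63 and 5.59 in NOD EpiSC-like ES and 2.79, 3.09 and 3.43 in NOD ES with a wide spread (1.80 ± 0.61, adjusted p = 0.0369). It was at 2.45 and 4.61 in EpiSC iPS, 4.48 and 3.33 in EpiSC, 4.16 in 129 ES epiESM and 6.08 and 6.10 in 129 ES mESM, lower in EpiSC than mESM but not called (-2.18 ± 0.85, adjusted p = 0.0847). The contrasts differed (3.98 ± 1.05, adjusted p = 0.0304). Cdk5rap1, a mitochondrial tRNA-modifying enzyme, fell in the NOD lines (-2.46 ± 0.46, adjusted p = 0.0013), as did the centrosomal Cdk5rap2 (-0.79 ± 0.15, adjusted p = 0.00135) and Cdk5rap3 (-0.69 ± 0.15, adjusted p = 0.00355).

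Of 8 E2f genes, the transcription factors that switch on replication genes or repress them, 6 fell in the NOD lines and 0 rose. In EpiSC 2 fell (E2f1, E2f4) and 1 rose (E2f6). These are 25% and 12.5%, against 12.6% and 11.9% of all genes. The counts without both arrays that stood apart were 6 that fell in the NOD lines, and 3 that rose and 3 that fell in EpiSC. E2f1, an activator, was at -0.51 and -0.36 in NOD EpiSC-like iPS, -0.38, -0.59, -0.15 and -0.39 in NOD EpiSC-like ES and 1.17, 1.30 and 1.10 in NOD ES, and fell (-1.60 ± 0.15, adjusted p = 9.08e-06). It fell in EpiSC too (-0.80 ± 0.21, adjusted p = 0.0157). Its non-NOD levels were 1.22 and 1.05 in EpiSC iPS, 0.35 and 0.27 in EpiSC, 0.15 in 129 ES epiESM and 1.11 and 1.10 in 129 ES mESM, and the 129 ES epiESM array lay below both EpiSC arrays. E2f4, a factor known to repress together with the pocket proteins, was at -0.85 and -1.0 in NOD EpiSC-like iPS, -1.05, -1.52, -1.58 and -0.83 in NOD EpiSC-like ES and -0.07, 0.68 and 0.89 in NOD ES (-1.58 ± 0.27, adjusted p = 0.000632). The non-NOD E2f4 levels were 0.17 and 0.81 in EpiSC iPS, -0.30 and -0.77 in EpiSC, 0.63 in 129 ES epiESM and 0.85 and 0.87 in 129 ES mESM, and EpiSC fell against mESM (-1.39 ± 0.37, adjusted p = 0.0188). E2f7 and E2f8, the atypical repressors, separated the 2 EpiSC-like lines. E2f7 was at -2.39 and -2.83 in NOD EpiSC-like iPS, 0.40, 0.16, 0.14 and 0.03 in NOD EpiSC-like ES and 0.64, 1.19 and 1.21 in NOD ES, with the iPS line far under every other NOD array (-2.23 ± 0.24, adjusted p = 2.45e-05). Its non-NOD levels were 0.30 and 1.31 in EpiSC iPS, 1.41 and 1.37 in EpiSC, 0.78 in 129 ES epiESM and 1.10 and 1.07 in 129 ES mESM. EpiSC was not called for it (0.30 ± 0.33, adjusted p = 0.521), and the contrasts differed (-2.53 ± 0.41, adjusted p = 0.00296). E2f8 was at -2.79 and -2.82 in NOD EpiSC-like iPS, -0.57, -1.10, -0.50 and -1.01 in NOD EpiSC-like ES and -0.74, 0.08 and 0.12 in NOD ES, with overlapping EpiSC-like and ES arrays (-1.62 ± 0.26, adjusted p = 0.000488). Its non-NOD levels were -0.40 and 0.39 in EpiSC iPS, 0.33 and 0.82 in EpiSC, 0.22 in 129 ES epiESM and -0.44 and -0.45 in 129 ES mESM, not called in EpiSC (1.02 ± 0.37, adjusted p = 0.0648), with differing contrasts (-2.64 ± 0.45, adjusted p = 0.00403). The second E2f7 probe (-2.41 in the NOD, -1.08 in the non-NOD comparison) and the second E2f8 probe (-0.15 and -1.03), well above background on 9 and 4 arrays, had the other sign in EpiSC. E2f2 (-1.39 ± 0.45, adjusted p = 0.0288) and E2f3 (-0.99 ± 0.19, adjusted p = 0.0016) fell in the NOD lines, and 1 of the 3 E2f3 probes had the other sign (0.32). E2f5 and E2f6 were not called there.

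**Figure D4:**
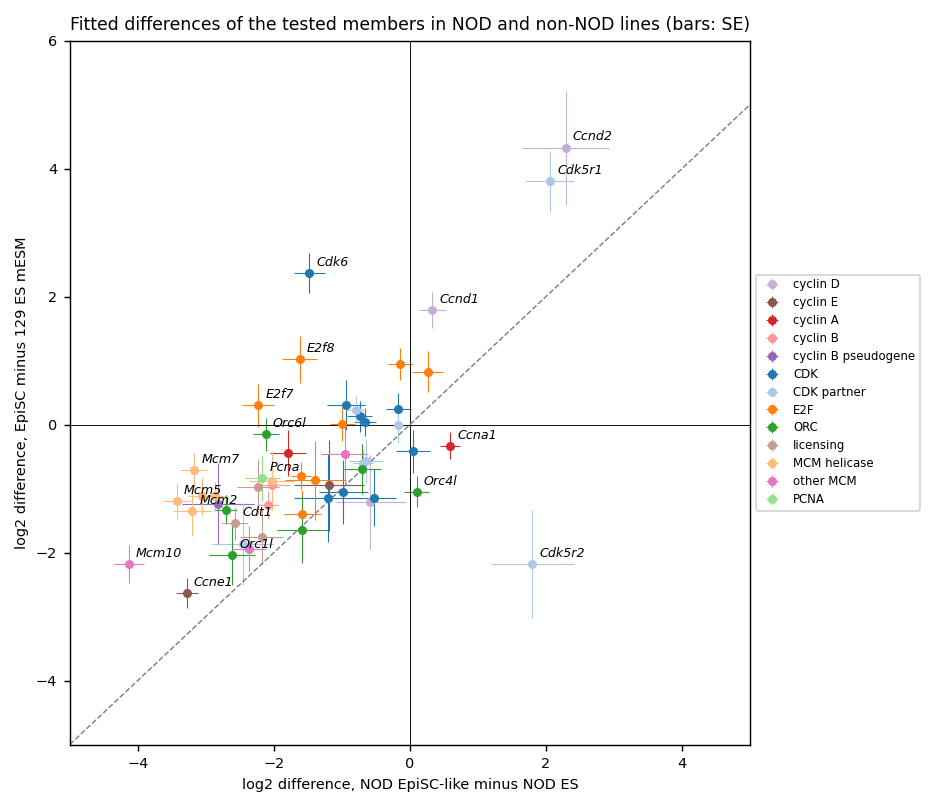
Fitted log2 difference of each of the 53 tested members in NOD EpiSC-like minus NOD ES lines (x axis) against EpiSC minus 129 ES mESM (y axis), with bars for the SE, colours for the roles and a dashed line of equal difference. The MCM helicase genes lie left of the line, with Mcm5 at -3.43 and -1.19. Mcm8, at -2.36 and -1.94, and Mcm3ap, at -0.96 and -0.46, lie nearer to it. Ccnd2 and Cdk5r1 lie at the upper right, and Cdk6 and Cdk5r2 fall in opposite corners.

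The contrast between states differed between NOD and non-NOD lines for 17 of 53 members (3 higher and 14 lower in the NOD lines), or 32.1% against 12.4% of all genes (4.95% higher and 7.46% lower). The lower ones included 5 MCM helicase genes, Mcm10, Orc2l, Orc6l, E2f6, E2f7, E2f8, Ccnd1, Cdk6 and Cdk5rap2, and the higher ones were Cdk5r2, Ccna1 and Orc4l. The Orc4l result rests on its brightest probe, as its 3 other probes differed by -0.73 to -0.54 in the NOD and by -0.70 to -0.20 in the non-NOD comparison. The count was 37 without both arrays that stood apart, 29 without NOD ES replicate 1, 9 without EpiSC replicate 2, 10 without EpiSC replicate 1, and 9 without 129 ES mESM replicate 1 or without replicate 2. It was 1 with normexp background correction and 0 with slide as a fixed block. Of the 7 primed epiblast markers 6 were lower in the NOD contrast too, and their part was not tested.

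Set directly against EpiSC, the NOD EpiSC-like lines were lower in 30 members and higher in 2, or 60.4% called against 16% of all genes (7.84% rose and 8.13% fell). The member median was -1.02 and that of all genes 0.27. All 6 MCM helicase genes, all 3 licensing genes, 3 of 6 Orc genes and 7 of 8 E2f genes fell. Mcm2 (-2.08 ± 0.32, adjusted p = 0.0017), Mcm5 (-2.07 ± 0.23, adjusted p = 0.00025) and Mcm10 (-1.82 ± 0.25, adjusted p = 0.000882) fell by amounts that stayed below 0 within both slides that held the 2 kinds of line (Mcm5 -2.02 and -1.18). Slide 1 held both EpiSC-like lines and slide 3 the ES line only. Ccne1 fell as well (-1.09 ± 0.19, adjusted p = 0.00312), with levels given above of 1.86 to 2.70 in EpiSC-like and 3.16 to 3.44 in EpiSC. Ccnd2 (0.09 ± 0.74, adjusted p = 0.937) and Ccnd1 (0.02 ± 0.23, adjusted p = 0.956) did not pass. The members that rose were Ccna1 (1.07 ± 0.17, adjusted p = 0.00201), through the ES line, and Cdk5rap3 (0.68 ± 0.17, adjusted p = 0.0213), which had the opposite sign with normexp background correction (-0.73). Of the 15 fibroblast markers 1 rose and 0 fell in this comparison, while 6 of 7 primed epiblast markers fell (median -3.54) and 1 of 3 pluripotency markers fell (median -1.80), and the part of these markers was not tested. The count of called members was 14 without EpiSC replicate 1, 13 without EpiSC replicate 2 and 14 with normexp background correction. Because this comparison shares its arrays with those above, it adds no independent evidence to them.

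The EpiSC-like lines differed from each other. In the iPS line against the ES line 22 members fell and 2 rose, or 45.3% against 25.7% of all genes (14.2% rose and 11.6% fell), with medians of -0.71 and 0.28. Of the MCM helicase genes 5 of 6 fell, among them Mcm2 (-1.92 ± 0.34, adjusted p = 0.00193) and Mcm6 (-1.55 ± 0.20, adjusted p = 0.000282). Pcna fell by 2.13 on the log2 scale, to 1.67 and 1.93 in the iPS line, against 3.77 to 4.01 in the ES line (-2.13 ± 0.31, adjusted p = 0.000692). E2f7 (-2.79 ± 0.29, adjusted p = 7.19e-05), E2f8 (-2.01 ± 0.32, adjusted p = 0.00106) and Ccna1 (-1.98 ± 0.18, adjusted p = 3.52e-05) were lower in the iPS line, though with normexp background correction E2f8 and Ccna1 changed sign (0.48 and 0.36). Cdk9 (0.93 ± 0.19, adjusted p = 0.00529) and Cdk5rap3 (1.01 ± 0.18, adjusted p = 0.00231) rose, and both also turned with that correction. None of the 3 licensing genes passed, and neither did Ccnb1 (-0.34 ± 0.19, adjusted p = 0.204) or Orc1l (-0.11 ± 0.40, adjusted p = 0.862). Within slide 1, which held 1 array of each line, Mcm2 differed by -1.91 and Pcna by -1.84. The pluripotency marker Pou5f1 fell in the iPS line too (-2.73 ± 0.69, adjusted p = 0.0141), as did 4 of 7 primed epiblast and 5 of 15 fibroblast markers, whose part was not tested. The count of called members was 15 without iPS replicate 2, 8 with slide as a fixed block and 0 with normexp background correction.

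The lines titled iPS_EpiSC had higher levels of several replication genes than EpiSC. Both EpiSC iPS arrays were on slide 6 and the EpiSC arrays on slides 1 and 3, so line and slide cannot be told apart within a slide. In this comparison 14 members rose and 5 fell, or 35.8% called against 21.1% of all genes, and over all genes 12.1% rose and 8.99% fell. Ccne1 rose most (2.19 ± 0.23, adjusted p = 8.04e-05), followed by Mcm10 (2.14 ± 0.30, adjusted p = 0.000582). Orc2l (1.62 ± 0.23, adjusted p = 0.000588), Cdt1 (1.59 ± 0.26, adjusted p = 0.00141), Mcm6 (1.49 ± 0.23, adjusted p = 0.000893) and Mcm7 (1.44 ± 0.27, adjusted p = 0.00286) also rose. Cdk5r1 fell (-2.14 ± 0.48, adjusted p = 0.00863). Replicate 2, which stood apart, was nearer the NOD ES arrays, and without both such arrays 16 members rose and 11 fell. The count was 9 without EpiSC replicate 1, 8 without EpiSC replicate 2, 4 with normexp background correction and 0 when only these 4 arrays were fitted. Against 129 ES mESM, 3 members of EpiSC iPS rose and 2 fell, or 9.43% against 10.5% of all genes (6.69% rose and 3.85% fell), a share near the background. Of the 15 fibroblast markers 9 rose and 0 fell there (median 3.60), and their part was not tested. Of the members called, Ccnd1 was higher (1.56 ± 0.28, adjusted p = 0.00714) and the brightest Orc4l probe lower (-1.17 ± 0.24, adjusted p = 0.0129). The count of called members was 2 without EpiSC iPS replicate 1, 15 without EpiSC iPS replicate 2, 14 without NOD ES replicate 1, 30 without both arrays that stood apart and 0 without 129 ES mESM replicate 1 or without replicate 2.

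Between the ES cells of the 2 strain groups few members were called. Neither NOD ES nor 129 ES epiESM shared a slide with 129 ES mESM. In NOD ES against 129 ES mESM, 4 rose and 4 fell, or 15.1% against 8.81% of all genes (5.79% rose and 3.02% fell). Ccnd1 rose (1.48 ± 0.26, adjusted p = 0.00659), as did the brightest Cdk6 probe (2.11 ± 0.30, adjusted p = 0.0026), while the brightest Orc4l probe (-1.26 ± 0.22, adjusted p = 0.00708) and Cdk8 (-1.41 ± 0.31, adjusted p = 0.0187) fell. No MCM helicase gene passed. With the mean over all probes Cdk8 differed by 0.02, the opposite sign, and 0 members were called with normexp background correction or with slide as a fixed block. Of the 15 fibroblast markers 7 rose and 0 fell in this comparison (median 2.64), and their part was not tested. The count was 13 without NOD ES replicate 1, 5 without NOD ES replicate 3, 0 and 1 without mESM replicates 1 and 2, and 21 without both arrays that stood apart. In 129 ES epiESM against mESM cells, 1 array against 2, 0 of 53 members passed the limma test (7 at an unadjusted p under 0.05), against 3.91% of all genes (2.34% rose and 1.57% fell). Without NOD ES replicate 1 there were 5 calls. Of the 15 fibroblast markers 8 rose and 0 fell. Ccnd2 was at 2.62 in epiESM, against 0.16 and 0.12 in mESM (2.48 ± 1.09, adjusted p = 0.25).

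Genes of the same pathway that the naming rule does not cover were taken from lists by function. Over all genes, 21.9% fell and 16.7% rose in the NOD comparison, and 12.6% fell and 11.9% rose in EpiSC. Of 28 tested fork proteins (polymerases, primases, clamp loaders and helicase cofactors), 26 fell and 0 rose in the NOD comparison, with a median of -2.31, and 12 fell in EpiSC, with a median of -1.07. Pole, the catalytic subunit of DNA polymerase epsilon, fell most (-3.78 ± 0.19, adjusted p = 2.19e-07), then the clamp loader Rfc5 (-3.21 ± 0.18, adjusted p = 3.51e-07) and the GINS subunit Gins1 (-3.19 ± 0.33, adjusted p = 2.16e-05). Timeless, a fork protector (-3.18 ± 0.18, adjusted p = 3.52e-07), and the primase subunit Prim2 (-3.18 ± 0.95, adjusted p = 0.0201) followed. Rfc3 and Rpa3 were not called.

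Of 7 genes that supply nucleotides 6 fell in the NOD lines and 2 in EpiSC. Among those that fell in the NOD lines were the ribonucleotide reductase subunit Rrm2 (-2.93 ± 0.29, adjusted p = 1.31e-05), thymidylate synthase Tyms (-2.60 ± 0.15, adjusted p = 3.34e-07) and the dUTPase Dut (-2.25 ± 0.15, adjusted p = 9.38e-07). Of 20 mitosis and checkpoint genes 18 fell in the NOD lines and 8 in EpiSC, with medians of -1.45 and -0.97. The checkpoint kinase Chek1 (-2.77 ± 0.32, adjusted p = 4.47e-05), the APC inhibitor Fbxo5 (-2.73 ± 0.23, adjusted p = 5.32e-06), the APC activator Cdc20 (-2.26 ± 0.18, adjusted p = 2.67e-06) and Bub1 (-2.22 ± 0.27, adjusted p = 6.44e-05) had the largest differences. Of 15 other cyclins and CDK subunits, 6 fell (40%) and 3 rose in the NOD lines. The share that rose, 20%, was near the 16.7% of all genes. Without both arrays that stood apart 9 fell and 3 rose. Ccnf, an E3 ligase subunit, fell (-2.67 ± 0.23, adjusted p = 5.84e-06), as did the CDK-binding Cks2 (-1.30 ± 0.23, adjusted p = 0.00077) and Cks1b (-1.17 ± 0.16, adjusted p = 0.000131), while Ccng2, a cyclin known from arrested cells, rose (1.85 ± 0.20, adjusted p = 2.57e-05).

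The CDK inhibitors moved the other way. Of 8 tested, 5 rose and 1 fell in the NOD lines (median 1.71), 4 rose and 0 fell in EpiSC (median 1.27), and 4 rose and 1 fell in NOD EpiSC-like against EpiSC. Cdkn2a, the gene of p16 and p19Arf, was at 0.27 and 1.10 in NOD EpiSC-like iPS, -0.50, -0.64, -0.03 and -0.55 in NOD EpiSC-like ES and -2.42, -2.64 and -2.75 in NOD ES (2.73 ± 0.28, adjusted p = 2.04e-05), and it rose in EpiSC (2.39 ± 0.39, adjusted p = 0.00127). Its non-NOD levels were -1.65 and -2.73 in EpiSC iPS, -1.73 and -1.11 in EpiSC, 0.46 in 129 ES epiESM and -3.84 and -3.78 in 129 ES mESM. The 129 ES epiESM array thus lay above both EpiSC arrays and all NOD EpiSC-like ES arrays, so high Cdkn2a was not confined to EpiSC and EpiSC-like lines. Over the 8 inhibitors the median difference of epiESM from mESM was 0.34. Cdkn1c, the gene of p57 (2.33 ± 0.63, adjusted p = 0.012), and Cdkn2b, the gene of p15 (2.30 ± 0.60, adjusted p = 0.00945), rose in the NOD lines. NOD ES replicate 1, which stood apart, was far above the other NOD ES arrays in both. Cdkn1c was at 2.80, 0.13 and 0.22 in NOD ES, where replicate 1 overlapped the EpiSC-like arrays (lowest 2.76). Cdkn2b was at 2.35, 0.34 and 0.28 in NOD ES. Cdkn3, a phosphatase that acts on Cdk2 rather than a binding inhibitor, fell (-2.25 ± 0.25, adjusted p = 3.28e-05). Among 8 RB and E2F partners 5 fell and 2 rose in the NOD lines. Mybl2, a cofactor for mitotic gene transcription, was at 0.62 and 0.85 in NOD EpiSC-like iPS, -0.05, -0.10, 0.05 and 0.03 in NOD EpiSC-like ES and 4.95, 5.77 and 5.83 in NOD ES, and fell (-5.16 ± 0.23, adjusted p = 9.62e-08). It fell in EpiSC too (-4.41 ± 0.31, adjusted p = 5.3e-06). Foxm1, which acts with it, fell in the NOD lines (-1.50 ± 0.20, adjusted p = 0.000128). The retinoblastoma gene Rb1 (1.81 ± 0.23, adjusted p = 9.3e-05) and its relative Rbl2 (1.70 ± 0.41, adjusted p = 0.00649) rose there. Without both arrays that stood apart, 28 of 28 fork proteins, 7 of 7 nucleotide genes and 20 of 20 mitosis genes fell in the NOD comparison, and 26, 4 and 15 fell in EpiSC. The fibroblast marker shift given above stood beside these lists too, and its part in them was not tested.

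**Figure D5:**
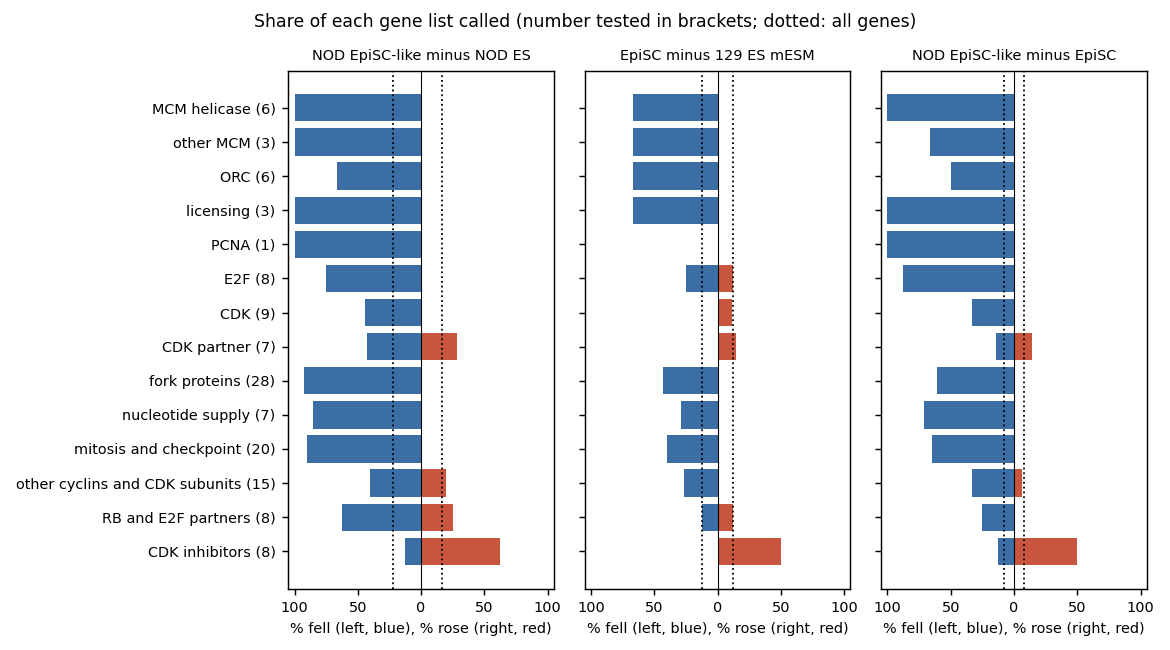
Percent of the tested genes of each role group and pathway list (rows, number tested in brackets) that fell (left, blue) or rose (right, red) in NOD EpiSC-like minus NOD ES, EpiSC minus 129 ES mESM and NOD EpiSC-like minus EpiSC, with dotted lines for the share of all genes. All 6 MCM helicase genes fell in the first and the third comparison, and 5 of 8 CDK inhibitors rose in the first.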

How the data were processed

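RNA of 16 samples was labelled with Cy3 and hybridised to 1-colour Agilent mouse arrays, per the labels' protocols. Per the file headers, Feature Extraction 10.1.1.1 made the processed spot intensity, which is background-subtracted, and probe coordinates are in build mm7. The submitters' processing notes name limma, with no version. The deposited value table holds log2 values, and each of its columns ranks the spots as the mean spot signal of 1 array does (Spearman rho 1) with a median of 6.93. It was used as an alternative.

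Of 45018 features, 1639 control spots were left out, and spots with outlier flags were set to missing. Log2 of the processed signal minus each array's 75th percentile was averaged over the spots of a probe. Probes well above background on at least 2 of 16 arrays were kept (34288 of 41174), and the brightest probe stood for a gene, named as in the files. In R 4.3.3, limma 3.58.1 fitted 1 mean for each of 7 groups over all arrays (lmFit and eBayes), with both EpiSC-like lines weighted equally. P-values were adjusted by Benjamini-Hochberg over all 23374 genes, and rose and fell mean an adjusted p under 0.05. The fit was also tested on simulated data. Values after ± are SE.

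The members follow the naming rule. They and the pathway and marker lists were chosen with earlier results of these data known. Values in every array are given for members called the same way in both state comparisons (up to 3 per role), the 6 largest interactions, the cyclins, Pcna, Gmnn, Cdt1 and Cdc6. From each pathway list the 4 largest differences in the NOD comparison are named (1 of them is not reported here), and other members by count. Arrays give no read depth, so their number limits precision, and the labels do not say which arrays are separate cultures. Alternatives were quantile scaling, normexp background correction (offset 50), the deposited table, no filter, the mean of all probes, slide as a block or within slides, and leaving out arrays. Of the lists, Lin37, Lin54, Gins2, Cdc45, Rfc1, Atr and Dppa5a had no probe of that name.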

Additional observations from a re-analysis of the deposited data

Results flagged for a closer look

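In NOD EpiSC-like ES replicate 1, Orc3l lay apart from the other 3 arrays of that line, at 0.88 against 0.67 to 0.68, a gap of 0.939 of the range of the group. This was the only one of 53 members to pass this check in the group of 4 arrays, and chance alone would mark about 1 in 20.

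The state contrast differed between NOD and non-NOD lines by a test of the difference itself for the following members. The difference in NOD lines minus that in non-NOD lines was 3.98 for Cdk5r2, whose NOD EpiSC-like values spread widely, from 3.30 to 6.33. It was -3.85 for the brightest Cdk6 probe, which the other 2 Cdk6 probes did not follow. It was -2.64 for E2f8 and -2.53 for E2f7, in both of which the second and dimmer probe had another sign in EpiSC. It was -2.46 for Mcm7 and -2.24 for Mcm5, for which no other probe was present. With slide as a fixed block none of these passed: the values were then 1.01 for Cdk5r2, -4.14 for Cdk6, -2.80 for E2f8, -2.47 for E2f7, -2.59 for Mcm7 and -2.37 for Mcm5.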

How the results depend on the processing

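No paired analysis was possible because the labels give no replicate numbers that groups share. Over all alternatives 12561 single-gene values were compared, of which 11051 kept direction and call, 710 lost and 383 gained the call, 408 moved and 9 were called values that changed sign (a sign change in a value that was not called is not counted among these). The cause of these shifts was not tested. In the NOD comparison 30 to 46 members were called under every alternative.

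With normexp background correction the called members numbered 7 in EpiSC against 129 ES mESM (3 rose, 4 fell, against 5 and 16), 4 in EpiSC iPS against EpiSC, 14 in NOD EpiSC-like against EpiSC, 1 in the interaction and 0 in NOD ES against mESM, in the EpiSC-like iPS against ES line and in EpiSC iPS against mESM. The signs that changed with it were those of Ccnb2-ps in the NOD comparison (0.84), of Cdk5rap3 against EpiSC (-0.73) and, between the EpiSC-like lines, of Ccna1 (0.36), Cdk9 (-0.93), Cdk5rap3 (-0.94) and E2f8 (0.48). With the mean over all probes they were Cdk8 in NOD ES (0.02) and EpiSC iPS (0.01) against mESM and Cdk6 between the EpiSC-like lines (0.03), and NOD ES against mESM had 5 calls. The deposited table gave 11 calls for EpiSC iPS against mESM (3 rose, 8 fell, against 3 and 2; quantile scaling gave 2 and 4), 2 for epiESM against mESM, and 3 rose and 7 fell for NOD ES against mESM.

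With slide as a fixed block 6 members were called in EpiSC against mESM, 8 between the EpiSC-like lines, 1 in EpiSC iPS against mESM and 0 in the interaction and in NOD ES against mESM. As a random block it gave 5 in NOD ES and 2 in EpiSC iPS against mESM. Without both arrays that stood apart the counts were 36 in EpiSC, 21 in NOD ES, 30 in EpiSC iPS and 9 in epiESM, each against mESM, and 37 in the interaction. With the mESM arrays averaged they were 11, 1 and 0 for EpiSC, NOD ES and EpiSC iPS against mESM and 9 in the interaction. Fitting only the groups compared gave 41 in EpiSC, 34 in epiESM, 0 in NOD ES and 0 in EpiSC iPS against mESM, and 0 in EpiSC iPS against EpiSC.

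The NOD median of -1.48 was -1.31 with quantile scaling, -1.10 with normexp, -1.20 with the deposited table, -1.89 with slide as a fixed block and -1.73 without both arrays, where the median of all genes was -0.02, 0.59, -0.01, 0.09 and -0.05. Leaving out 1 array at a time, the calls ranged from 34 to 45 in the NOD comparison (median -1.73 to -1.28) and from 11 to 31 in EpiSC against mESM (median -0.90 to -0.76). They ranged from 8 to 26 in EpiSC iPS and from 13 to 34 in NOD EpiSC-like, each against EpiSC. The ranges were 0 to 13 in NOD ES, 0 to 15 in EpiSC iPS and 0 to 5 in epiESM against mESM, 15 to 30 between the EpiSC-like lines and 9 to 29 in the interaction.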
